A study of Mus musculus with 6 samples.

Results

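Enzymes of the colon epithelium that make superoxide, hydrogen peroxide and nitric oxide were examined as 10 genes chosen by symbol: the oxidases Duox2, Duox1 and Nox1, the maturation factors Duoxa2 and Duoxa1, the Nox1 partners Noxo1, Noxa1, Cyba and Rac1, and the inducible nitric oxide synthase Nos2. Each of the 10 symbols was found in the table of 55487 genes. The RNA-seq libraries came from colon intestinal epithelial cells (IECs) released with EDTA, of mice on a C57BL/6J background treated with dextran sodium sulphate (DSS), a compound that damages the lining of the colon and brings on colitis. The control group held 3 libraries from Nsd2 f/f mice, which carry loxP sites around Nsd2 but no Cre, and which the sample labels call WT. The other group held 3 libraries from Nsd2 Vil-KO littermates, with the same floxed alleles plus Cre driven by the Villin promoter, which acts in intestinal epithelium, so that any other cell in the preparation keeps Nsd2. Both groups received 2% DSS, and no library without DSS was analysed here. DSS was given in drinking water for 5 days and then replaced by water, in mice of 2 months of age, and the day on which these cells were taken is not given in the sources used here. The labels do not say whether each library came from 1 animal, and p-values below measure only the spread between these libraries.

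NADPH oxidases carry electrons from NADPH across a membrane to oxygen. Duox2, with its maturation factor Duoxa2, releases hydrogen peroxide at the apical surface of the gut epithelium, and Nox1 makes superoxide in colon epithelium when Cyba, the organiser Noxo1, the activator Noxa1 and the GTPase Rac1 join it. Nos2 makes nitric oxide from arginine, and is known for its induction by cytokines and bacterial products in inflamed colon, in epithelium as in macrophages. DUOX2, NOX1 and NOS2 are each studied in inflammatory bowel disease.

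The libraries held between 15439123 and 20350539 counted reads, and 3 counts in a library corresponded to between 0.146 and 0.242 CPM (counts scaled to equal library size with TMM factors). A pair of libraries stood apart, the one labelled Nsd2 f/f replicate 3 and the one labelled Nsd2 Vil-KO replicate 2. The mean Spearman correlation over genes was 0.981 among the other 4 libraries, 0.933 between the pair and those 4, and 0.927 within the pair. These libraries held 4296 and 3684 counts of Xist, the RNA of the inactive X chromosome, against 1 to 5 in the other 4, and mitochondrial genes took 19.6% of counts in Nsd2 f/f replicate 3 against 5.51% to 9.13% elsewhere. Epithelial markers (10 genes, led by Lgals4, Krt8 and Epcam) were detected throughout, with a summed level of 14135 to 21925 CPM. Values of single libraries are given in the order of replicates 1, 2 and 3 of each genotype. Nsd2 itself, the deleted gene, had 47.9, 51.2 and 24.6 CPM in f/f and 24.2, 10.4 and 20.8 CPM in Vil-KO. It was lower in each Vil-KO library than in any f/f library, but Nsd2 f/f replicate 3 and Nsd2 Vil-KO replicate 1 were nearly equal. The log2 fold change of Nsd2 (Vil-KO over f/f, as everywhere below) was -1.16 (SE 0.39, adjusted p = 0.992 by edgeR's quasi-likelihood test), which passed the screening criterion of the study (fold change above 1.2 and unadjusted p below 0.05). It did not pass without Nsd2 f/f replicate 1 or without Nsd2 f/f replicate 2, and was -1.13 (SE 0.14) in the 4 libraries left without the pair.

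Duox2, Duoxa2, Duoxa1 and Duox1 lie together on chromosome 2 within 68726 bases (GENCODE vM21 annotation, build GRCm38). Duox2 (ENSMUSG00000068452, chr2:122279247-122298449, minus strand) and Duoxa2 (ENSMUSG00000027225, chr2:122298900-122302885, plus strand) are transcribed away from each other, with 450 bases between their 5′ ends. Duoxa1 (ENSMUSG00000027224, chr2:122302191-122313730, minus strand) and Duox1 (ENSMUSG00000033268, chr2:122315672-122347972, plus strand) repeat this layout with 1941 bases between. The exons of Duoxa2 and Duoxa1 overlap at their 3′ ends over 682 bases on opposite strands, 42.8% of the exon length of Duoxa2. Nox1 (ENSMUSG00000031257) lies at chrX:134086421-134221956 on the minus strand, and its RefSeq start lies inside this span. The bases just upstream of the RefSeq starts of Duoxa2, Duoxa1, Duox1 and Nox1 (build GRCm38.p6, 5′ to 3′ on the gene's strand, the last base at position -1) are printed. They set Duoxa2 and Nox1 beside the scarcer Duox1 and Duoxa1. Duoxa2 and Nox1 were not the most abundant of the group, and the windows of Cyba and Noxa1, with higher mean levels per kilobase of exon, are not printed. Capitals mark matches to the motifs named next, on either strand.
Duoxa2, chr2:122298650-122298899: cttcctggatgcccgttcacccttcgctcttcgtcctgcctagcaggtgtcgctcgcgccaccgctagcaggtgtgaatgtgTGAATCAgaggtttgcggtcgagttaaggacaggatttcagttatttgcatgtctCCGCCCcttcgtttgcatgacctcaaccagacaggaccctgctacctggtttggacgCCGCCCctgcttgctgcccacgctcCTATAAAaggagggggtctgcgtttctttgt
Duoxa1, chr2:122313731-122313980: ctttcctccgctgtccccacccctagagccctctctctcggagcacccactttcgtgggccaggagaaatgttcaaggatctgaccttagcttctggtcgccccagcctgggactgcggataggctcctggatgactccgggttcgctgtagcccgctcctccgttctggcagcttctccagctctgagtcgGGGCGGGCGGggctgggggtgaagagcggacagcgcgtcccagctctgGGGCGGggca
Duox1, chr2:122315422-122315671: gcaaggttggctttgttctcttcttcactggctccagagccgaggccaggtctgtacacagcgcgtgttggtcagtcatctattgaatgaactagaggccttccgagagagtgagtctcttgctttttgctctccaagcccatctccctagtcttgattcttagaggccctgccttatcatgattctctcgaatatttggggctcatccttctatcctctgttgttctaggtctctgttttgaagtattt
Nox1, chrX:134111855-134112104: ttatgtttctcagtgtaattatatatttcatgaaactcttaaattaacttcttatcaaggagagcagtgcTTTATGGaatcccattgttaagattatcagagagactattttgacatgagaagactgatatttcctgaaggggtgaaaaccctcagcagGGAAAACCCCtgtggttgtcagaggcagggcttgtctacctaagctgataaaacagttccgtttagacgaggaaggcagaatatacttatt

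The search covered both strands for the TATA box written as TATAAA, the GC box as GGGCGG, the AP-1 motif as TGANTCA, the STAT element called GAS with the letters TTCNNNGAA, the CDX motif as TTTATNG, and, by name alone, the ISRE of interferon signalling and the NF-kB consensus. The window upstream of Duoxa2 held a TATA box at -30, which a CDX match on the other strand overlaps, GC boxes at -113 and -56 and an AP-1 match at -168. That of Duoxa1 held GC boxes at -58, -54 and -10, the first 2 overlapping, and that of Duox1 held none of the motifs. The Nox1 window held an NF-kB match at -91 and a CDX match at -180. Among the 32851 windows of 250 bases in the RefSeq table, 12.4% held the TATA box, 32.7% the GC box, 6.75% the AP-1 motif, 7.25% the NF-kB motif and 9.81% the CDX motif, and 7.02% and 2.98% held GAS and ISRE, which none of these 4 windows had. A match describes letters and not binding. The Duox2 window overlaps exons that GENCODE gives to Duox2 itself, and the Noxo1 window an exon of its neighbour Gfer, so neither is printed. The table gave windows for 8 of the 10 genes, without Nos2 and Rac1.

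No gene of the group passed the screening criterion between the genotypes, against 3.29% of the 14650 genes tested (1.65% higher and 1.65% lower in Vil-KO). All 10 had enough counts to be tested, 0 had an unadjusted p below 0.05, and none had an adjusted p below 0.05, as was so for 0% of all tested genes by edgeR. DESeq2 put 1 of the 10 past the criterion (Duoxa2), against 4.32% of all tested genes. With quality weights, limma-voom put 2 of the 10 past it (Duox2 and Duoxa2), against 9.83% of all tested genes. These calls in the group were all higher in Vil-KO, and none had an adjusted p below 0.05. Over all genes 482 passed by edgeR, which were the genes with an unadjusted p below 0.05, and 4 had an adjusted p below 0.05 by DESeq2. The fitted log2 fold change was positive for 9 and negative for Duox1, with a median of 0.39, while the median of all tested genes was 0.0012 and 50.1% of them were positive. Duoxa2 and Noxo1 were higher in each Vil-KO library than in any f/f library, which was so for 5.21% of all tested genes (4.7% were lower without overlap and 9.9% in either direction). The within-genotype SD was above that of the median tested gene (0.34 on the log2(CPM + 1) scale) for 8 of the 10, and 6 genes had their lowest level in Nsd2 f/f replicate 3, while 5 had their highest in Nsd2 Vil-KO replicate 2. With the pair of libraries left out, Duox2, Duoxa2 and Nox1 passed the criterion, each higher in Vil-KO. In those 4 libraries 11% of 15030 tested genes passed, and 5.6% were higher in Vil-KO. The fitted log2 fold change there was negative for Duox1 (-0.19), Duoxa1 (-0.21) and Noxa1 (-0.047), and positive for the rest of the group. The genes share the same libraries, so their directions are not independent. Whether the pair or the remaining 4 libraries give the better estimate was not tested.

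**Figure D1:**
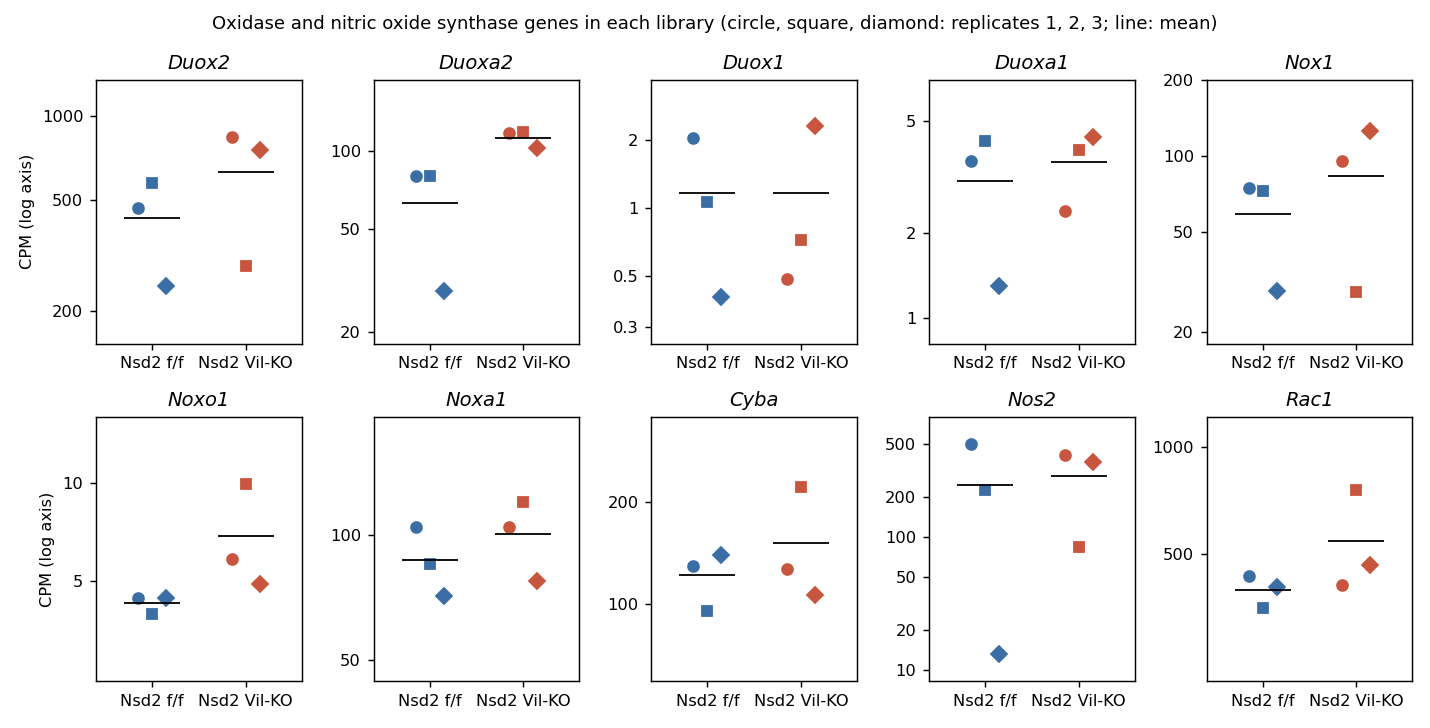
CPM of each gene in each library on log axes, with the mean of each genotype as a line (n = 3). Duoxa2 and Noxo1 show no overlap between genotypes, Nos2 ranges from 13.3 to 502 CPM, and the diamond of Nsd2 f/f (replicate 3) is the lowest point for 6 of the 10 genes.

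Per kilobase of exon, Cyba and Rac1 had the highest levels of the group, with means over the 6 libraries of 131 and 105 RPKM. Duox2 followed at 78.2 RPKM (range 36.3 to 124), then Nos2 at 60.8 RPKM (3.02 to 114), Noxa1 at 58.1 RPKM (44.2 to 74.4), Duoxa2 at 55.2 RPKM (18.1 to 74.4) and Nox1 at 21.5 RPKM (8.69 to 38.0). Noxo1 had 1.86 RPKM (1.31 to 3.31), Duoxa1 0.83 RPKM (0.325 to 1.1) and Duox1 0.22 RPKM (0.0767 to 0.437). Neighbours in this order overlapped in their ranges over libraries, except that the range of Nox1 lay above that of Noxo1 and the range of Noxo1 above that of Duoxa1. On this scale the organiser Noxo1 was below Nox1 in each library, while the activator Noxa1 and the subunit Cyba were above it. Exons on the opposite strand cover 2122 of the 3013 exon bases of Noxo1 and 2309 of the 4496 of Rac1. The levels of Noxo1 and Rac1 depend on how reads there were counted, which is not given in the sources used here.

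Duox2, the oxidase with peroxide output at the apical membrane, was the most abundant DUOX gene by far. Its level was 470.0, 574 and 246 CPM in f/f and 840.4, 291 and 756 CPM in Vil-KO. Replicates 1 and 3 of Vil-KO were above each f/f library, while Vil-KO replicate 2 fell between f/f replicates 3 and 1, so the groups overlapped. The means were 429.8 ± 168 and 629 ± 296 CPM (SD, n = 3 each). The log2 fold change was 0.55 (SE 0.47, 95% interval -0.56 to 1.66, adjusted p = 0.992 by edgeR), and an exact two-sided permutation test gave p = 0.5, where 0.1 is the smallest possible. With a single library left out it ran from 0.27 (without Nsd2 f/f replicate 3) to 0.89 (without Nsd2 Vil-KO replicate 2), and only the latter fit passed the criterion. It was 0.29 without Nsd2 Vil-KO replicate 1, and 0.62 (SE 0.14, adjusted p = 0.327 by edgeR) in the 4 libraries without the pair.

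Duoxa2, without which Duox2 does not leave the endoplasmic reticulum, had 80.0, 80.1 and 28.8 CPM in f/f and 117.7, 118 and 103 CPM in Vil-KO. All the Vil-KO libraries were above all the f/f libraries, and they were close to each other, with a highest to lowest ratio of 1.15 against 2.78 among f/f. The means were 63.0 ± 29.5 and 113 ± 8.78 CPM (SD, n = 3 each). Duoxa2 had the largest log2 fold change of the 10 genes, at 0.84 (SE 0.37, 95% interval -0.04 to 1.72, adjusted p = 0.992 by edgeR), and the exact permutation p was 0.1, the smallest possible. It passed the criterion when any one of the f/f libraries was left out and did not when any one of the Vil-KO libraries was. The log2 fold change was 0.50 (SE 0.17) without Nsd2 f/f replicate 3 and 0.47 (SE 0.12, adjusted p = 0.352 by edgeR) in the 4 libraries without the pair.

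Duox1 and Duoxa1, the second oxidase and maturation factor of the locus, were scarce. Duox1 was counted 41, 18 and 5 times in f/f and 10, 13 and 45 times in Vil-KO, which is 0.404 to 2.30 CPM. Duox2 made up between 99.57% and 99.94% of the counts of both oxidases. High and low values of Duox1 occurred in both groups, and its log2 fold change of -0.06 (SE 0.75, 95% interval -1.84 to 1.72) leaves its difference undetermined in these libraries. Duoxa1 had 3.62, 4.25 and 1.29 CPM in f/f and 2.39, 3.94 and 4.39 CPM in Vil-KO. The groups overlapped (log2 fold change 0.20, SE 0.50), and the fitted value was -0.21 in the 4 libraries without the pair. Whether reads were counted by strand is not given in the sources used here, so how reads of the shared exons were divided cannot be told apart, and the Duoxa1 counts came to 2.03% to 5.31% of those of Duoxa2. Of the 100-base stretches in Duox1 transcripts, 2.53% also occur in those of Duox2.

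Within a library, Duox2 and its maturation factor kept a narrow ratio except in 1 library. The ratio of reads per kilobase, Duox2 to Duoxa2, was 1.38, 1.69 and 2.0 in f/f and 1.68, 0.578 and 1.73 in Vil-KO. In Vil-KO replicate 2 Duoxa2 was as high as in the other Vil-KO libraries while Duox2 was low. The mean log2 ratio was 0.74 ± 0.27 in f/f and 0.25 ± 0.90 in Vil-KO (SD, n = 3 each), a difference of -0.49 (exact permutation p = 0.6). It was 0.16 without the pair. Levels in Vil-KO replicate 2 also moved with gene length. Genes with exon lengths like that of Duox2 (6771 bases) had a median deviation of -0.10 log2 units from their mean there. Those with lengths like that of Duoxa2 (1592 bases) had one of 0.16. In f/f replicate 3, where the ratio was highest, the same medians were -0.0745 and 0.18. Shifts of similar size went the other way in Vil-KO replicate 1 (0.0641 and -0.127) and replicate 3 (0.0702 and -0.161). The ratios of those libraries were 1.68 and 1.73. The part of gene length in the ratio was not tested. The ratio of Duox2 to Duox1 ran from 180 to 1341 and that of Duox1 to Duoxa1 from 0.138 to 0.424, with no difference between genotypes beyond the spread (exact permutation p = 0.7 and 0.5).

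**Figure D2:**
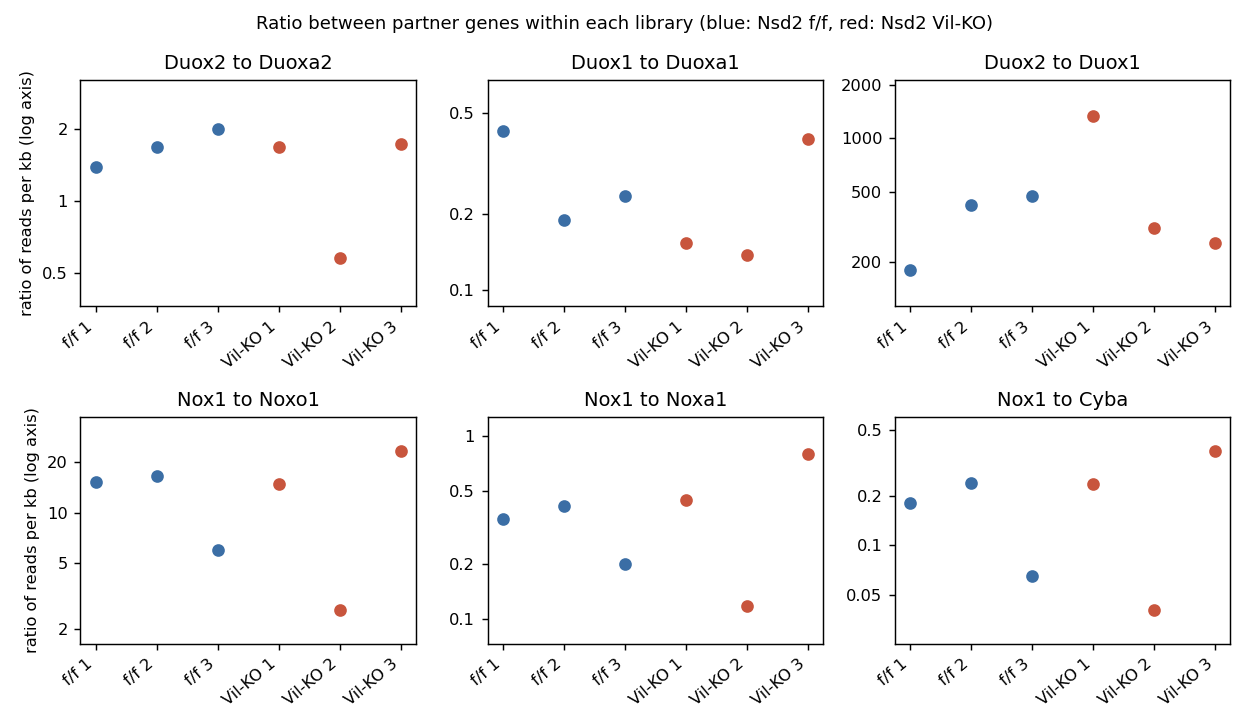
Ratio of reads per kilobase of exon between partner genes in each library, on log axes, with f/f in blue and Vil-KO in red. The Duox2 to Duoxa2 ratio lies between 1.38 and 2.0 except at 0.578 in Vil-KO replicate 2, and the 3 Nox1 ratios are lowest in Vil-KO replicate 2 and next lowest in f/f replicate 3.

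Nox1, the superoxide-making oxidase of colon epithelium, had 74.9, 72.4 and 29.0 CPM in f/f and 95.5, 28.7 and 126 CPM in Vil-KO. The lowest values were those of the pair of libraries that stood apart, 1 in each genotype, and the other Vil-KO libraries were above the other f/f libraries. The means were 58.8 ± 25.8 and 83.3 ± 49.6 CPM (SD, n = 3 each). The log2 fold change was 0.50 (SE 0.56, 95% interval -0.83 to 1.83, adjusted p = 0.992 by edgeR), with an exact permutation p of 0.6. With a single library left out it ran from 0.079 (without Nsd2 Vil-KO replicate 3) to 0.91 (without Nsd2 Vil-KO replicate 2), and was 0.18 without Nsd2 f/f replicate 3. In the 4 libraries without the pair it was 0.59 (SE 0.14, adjusted p = 0.345 by edgeR). Exons of Cstf2 on the opposite strand cover 399 of the 3307 exon bases of Nox1, at 49.2 to 92.1 CPM. Nox1 lies on the X chromosome, and the pair is also that with Xist transcripts. Fitted with Xist, present or absent, as a covariate, its log2 fold change was 0.39 (SE 0.18, adjusted p = 0.64 by edgeR). That covariate marks exactly the pair, so Xist cannot be told apart from other features of these libraries. Markers of the crypt base and of cycling cells (6 genes, none at 0 in any library, led by Mki67, Top2a and Ccnb1) were lowest in the same libraries for 5 of the 6. Their summed level was 548, 539 and 133 CPM in f/f and 539, 206 and 756 CPM in Vil-KO, with no marker called between genotypes. Their part in the Nox1 and Duox2 levels was not tested, and fewer cells of a type and less RNA per cell cannot be told apart in bulk libraries.

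Noxo1, the organiser that holds the Nox1 complex together, had 4.46, 3.96 and 4.44 CPM (90, 67 and 55 counts) in f/f and 5.85, 9.99 and 4.90 CPM (120, 180 and 96 counts) in Vil-KO. The f/f libraries were close to each other and all below the Vil-KO libraries, of which replicate 2 was the highest. The log2 fold change was 0.69 (SE 0.37, 95% interval -0.18 to 1.55, adjusted p = 0.992 by edgeR), the exact permutation p was 0.1, and the value was 0.33 without Nsd2 Vil-KO replicate 2. Exons of Tbl3 on the opposite strand cover 2122 of the 3013 exon bases of Noxo1 (ENSMUSG00000019320, chr17:24696234-24700529, plus strand), so without strand the reads of these genes cannot be told apart. Tbl3, a ribosome biogenesis gene, had 28.7, 29.3 and 19.5 CPM in f/f and 27.9, 37.8 and 30.0 CPM in Vil-KO, and was likewise highest in Vil-KO replicate 2.

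Noxa1 (ENSMUSG00000036805, chr2:25085667-25095149, minus strand), the activator subunit, varied least of the 10 genes. It had 104.5, 85.3 and 71.4 CPM in f/f and 104.7, 120.3 and 77.6 CPM in Vil-KO, and the groups overlapped. Its log2 fold change was 0.21 (SE 0.23, 95% interval -0.34 to 0.76), and -0.05 in the 4 libraries without the pair. Entpd8 overlaps 50 of its exon bases on the opposite strand. Cyba (ENSMUSG00000006519, chr8:122424776-122432930, minus strand), the membrane subunit that Nox1 shares with the phagocyte oxidase, had 129.8, 95.1 and 139 CPM in f/f and 127, 221 and 106 CPM in Vil-KO. Only Vil-KO replicate 2 was outside the f/f range, and the log2 fold change of 0.32 (SE 0.31, 95% interval -0.42 to 1.05) was -0.06 without it. Rac1 (ENSMUSG00000001847, chr5:143503634-143528036, minus strand), a GTPase with many uses beside the oxidase, had 436, 353 and 405 CPM in f/f and 409.7, 759.6 and 467 CPM in Vil-KO. Again Vil-KO replicate 2 stood above the rest, and the log2 fold change of 0.45 (SE 0.28, 95% interval -0.22 to 1.12, exact permutation p = 0.2) was 0.14 without it. Exons of Daglb on the opposite strand cover 2309 of the 4496 exon bases of Rac1, at 19.1 to 62.4 CPM.

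Nox1 was low in both libraries of the pair, where Noxo1 and Cyba were not, and where Noxa1 was low in f/f replicate 3 alone. The ratio of reads per kilobase of Nox1 to Noxo1 was 15.3, 16.7 and 5.95 in f/f and 14.9, 2.62 and 23.3 in Vil-KO. It was lowest in the pair that stood apart, as were the ratios of Nox1 to Noxa1 (0.117 to 0.792) and of Nox1 to Cyba (0.0408 to 0.372). Without the pair the Nox1 to Noxo1 ratio lay between 14.9 and 23.3. The size of the Nox1 to Noxo1 ratio depends on how reads in exons shared with Tbl3 were counted. No ratio differed between genotypes beyond the spread between libraries, with differences in mean log2 ratio of -0.25, 0.17 and 0.11 and exact permutation p-values of 0.8, 0.8 and 1 (0.96 to 1 after Benjamini-Hochberg adjustment over the 6 ratios tested).

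Nos2 (ENSMUSG00000020826, chr11:78920787-78960254, plus strand) had the widest range of the group. Its level was 502, 225 and 13.3 CPM in f/f and 414, 84.2 and 370.1 CPM in Vil-KO. The f/f libraries differed among themselves by 37.7-fold and those of Vil-KO by 4.92-fold, and the highest and the lowest library were both f/f. The within-genotype SD of 2.11 log2 units was the largest of the 10 genes. The log2 fold change was 0.23 (SE 1.07), and its 95% interval of -2.30 to 2.75 is too wide to give a direction. It was -0.33 without Nsd2 f/f replicate 3, 1.28 without Nsd2 f/f replicate 1 and 0.12 (SE 0.45) in the 4 libraries without the pair. Myeloid markers (12 genes, led by Cd14, S100a9 and S100a8), whose cells can also express Nos2, had summed levels of 1069.8, 292 and 121 CPM in f/f and 346, 1163 and 311 CPM in Vil-KO, with none of the 12 past the criterion. Adgre1 and Cxcr2, markers of macrophages and neutrophils, were at 0 counts in Nsd2 f/f replicate 3, where Nos2 was lowest. In that library 10 of the 12 markers were at their lowest, and in f/f replicate 1, where Nos2 was highest, 9 of the 12 were at their highest. In Vil-KO replicate 3, with Nos2 at 370.1 CPM, 6 of the 12 were among their 2 lowest values and 1 was at its highest. The large sum in Vil-KO replicate 2 was 84.2% S100a8 and S100a9, and without these it was 184 CPM there against 113 to 515 CPM over the 6 libraries. Cd14 made up 82.0% of the full sum in f/f replicate 3 and 78.8% in Vil-KO replicate 3. Without the 2 highest markers of each library, the sums were 479, 111 and 16.1 CPM in f/f and 132, 184 and 42.6 CPM in Vil-KO. The part of myeloid cells in the Nos2 levels was not tested.

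**Figure D3:**
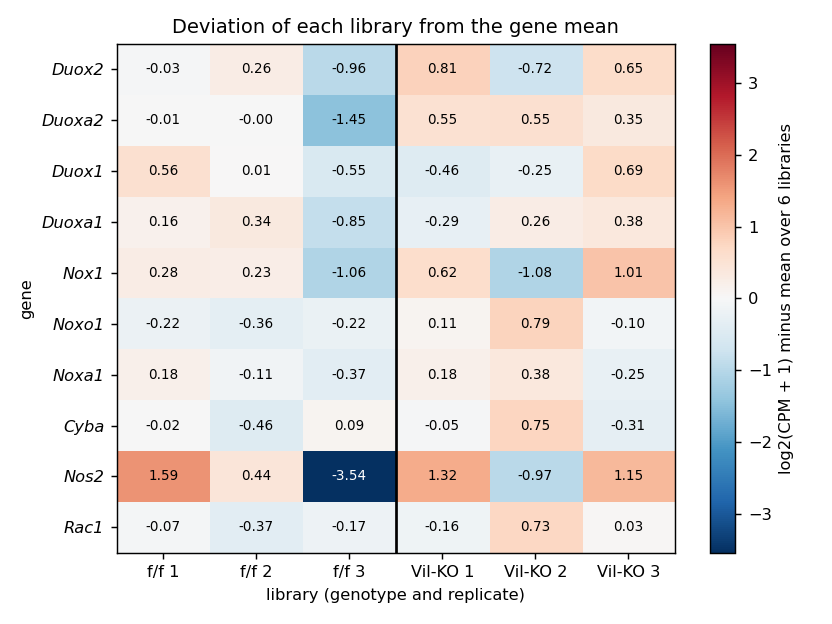
Deviation of log2(CPM + 1) in each library (columns) from the gene's mean over the 6 libraries (rows), in colour and as numbers. Duox2, Nox1 and Nos2 are low in f/f replicate 3 and Vil-KO replicate 2, while Noxo1, Noxa1, Cyba and Rac1 have their highest value in Vil-KO replicate 2.

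**Figure D4:**
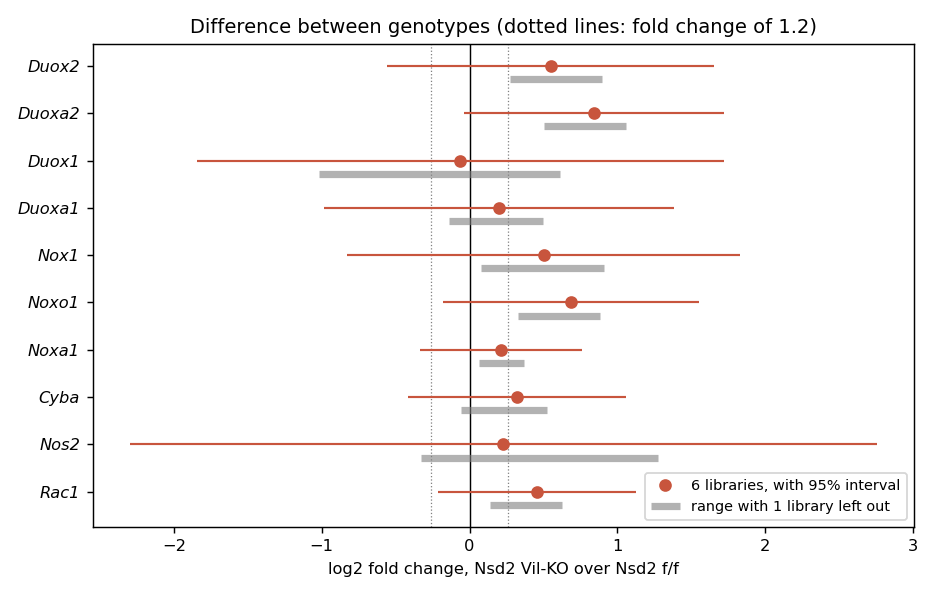
Log2 fold change, Vil-KO over f/f, of each gene with its 95% interval (red) and the range of values when 1 library is left out (grey). Each interval includes 0, and the ranges of Duox1, Duoxa1, Cyba and Nos2 extend to both sides of 0.

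The genes whose pattern over the 6 libraries was most like that of a group member were named by Pearson's r of log2(CPM + 1) among 13331 genes whose mean reached 1 CPM. For Duox2 these were Fer1l4, Tubgcp6, Zfp335, Gm37795 and Otud4 (r 0.991 to 0.994). For Nox1 they were Hrob, a DNA repair factor, Ccnd1, which encodes cyclin D1, Gm29397, Snhg17 and Mtr, the methionine synthase (r 0.995 to 0.998). For Nos2 they were Tnfrsf25, the interferon-induced GTPase Gbp4, Zfp664, the ubiquitin-conjugating enzyme Ube2s and Ppp1r12c (r 0.992 to 0.994). Ccnd1 had 78.8, 66.7 and 28.1 CPM in f/f and 92.9, 29.2 and 130.01 CPM in Vil-KO, near the values of Nox1 itself. Gbp4, like Nos2, was low in the pair, at 0.404 CPM in Nsd2 f/f replicate 3 and 5.88 CPM in Nsd2 Vil-KO replicate 2 against 19.8 to 48.3 CPM elsewhere. An r above 0.9 was common, with 597 genes for Duox2, 833 for Nox1 and 609 for Nos2, and the points share the contrast between the pair and the other 4 libraries.

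The phagocyte oxidase, which serves neutrophils and macrophages, was followed through 5 genes, Cybb (gp91phox), Ncf1, Ncf4, Rac2 and the chaperone Cybc1. None of the 5 passed the criterion, 4 had a negative and 1 a positive log2 fold change, and the median was -1.05. Cybb had 18.2, 4.90 and 1.37 CPM in f/f and 5.07, 0.499 and 2.66 CPM in Vil-KO, and was highest in f/f replicate 1 (log2 fold change -1.58, SE 1.00). Ncf1 was also highest there, at 21.9 CPM against 1.29 to 5.02 CPM elsewhere (-2.08, SE 0.96, adjusted p = 0.992 by edgeR). Ncf4 ranged from 0.485 to 8.92 CPM (-1.05, SE 0.83) and Rac2 from 4.04 to 60.9 CPM, highest in Vil-KO replicate 2 (0.78, SE 0.98). Cybc1, at 24.0 to 45.8 CPM, had a log2 fold change of -0.08 (SE 0.27). These differences rested largely on f/f replicate 1: without it the log2 fold change was -0.21 for Cybb, -0.52 for Ncf1 and -0.02 for Ncf4. Without f/f replicate 3 both Ncf1 and Ncf4 passed the criterion as lower in Vil-KO, and in the 4 libraries without the pair Ncf4 did (-1.31, SE 0.49). Rac2 turned to -0.84 without Vil-KO replicate 2 and Cybc1 to 0.17. Cyba, the subunit shared with Nox1, was at 95.1 to 221 CPM in the same libraries. Myeloid markers, as given above, were mostly highest in f/f replicate 1, and their part in these levels was not tested.

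Of the other oxidase and synthase genes (Rac3 and the organiser relatives Sh3pxd2a and Sh3pxd2b among 7), 3 had enough counts, each with a positive log2 fold change and none past the criterion. Sh3pxd2b had 0.99 (SE 0.45) and Sh3pxd2a 0.77 (SE 0.42), both highest in Vil-KO replicate 2. Without that library they were 0.67 and 0.14, and in the 4 libraries without the pair 0.35 and 0.18. Sh3pxd2b passed the criterion without f/f replicate 1. Of 5 peroxidases, Lpo and Pxdn were tested. Lpo, the lactoperoxidase, which uses hydrogen peroxide, had 55.9, 60.0 and 14.6 CPM in f/f and 79.6, 131 and 63.3 CPM in Vil-KO, with no overlap (log2 fold change 1.07, SE 0.53, adjusted p = 0.992 by edgeR, 0.66 without f/f replicate 3 and 0.31 in the 4 libraries without the pair). Pxdn, peroxidasin, was at 0.0808 to 2.10 CPM (0.31, SE 0.86, and -0.55 without Vil-KO replicate 1).

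Of the genes for arginine supply, the cofactor tetrahydrobiopterin and synthase inhibitors, 14 of 15 were tested, with 8 positive, 6 negative and a median of 0.03. Only Ddah1, which degrades a methylated arginine that inhibits nitric oxide synthases, passed the criterion, as higher. Its level was 111, 98.6 and 80.8 CPM in f/f and 128, 151 and 142 CPM in Vil-KO, with no overlap (log2 fold change 0.54, SE 0.19, adjusted p = 0.992 by edgeR). It remained above the limit of fold in each fit with a library left out (0.42 to 0.64), but its p did not pass without Nsd2 f/f replicate 2 or 3 or Nsd2 Vil-KO replicate 3. Spr, a tetrahydrobiopterin synthesis enzyme, had -0.50 (SE 0.27), with its highest value in f/f replicate 3 and a log2 fold change of -0.15 without it. Among 16 genes that remove peroxide and superoxide, 7 had positive and 9 negative values, none passed, and the median was -0.05. Txnrd1, thioredoxin reductase, was at 245 to 306 CPM in f/f and 350.3 to 395 CPM in Vil-KO, without overlap (0.41, SE 0.19, adjusted p = 0.992 by edgeR). Gpx2, the glutathione peroxidase of gut epithelium, had 0.65 (SE 0.39), with its highest value in Vil-KO replicate 2. It was 0.18 without that library and 0.03 (SE 0.15) in the 4 libraries without the pair. Among 16 receptors and signal carriers through which cytokines and bacteria induce these enzymes, 10 were positive, 6 negative, none passed, and the median was 0.13. The TNF receptor Tnfrsf1a had 0.61 (SE 0.28), and 0.25 in the 4 libraries without the pair. The IL-22 receptor subunit Il22ra1 had 0.39 (SE 0.21), without overlap between genotypes. Of the tested genes, 2 of these 16, 2 of the 14 and 1 of the 16 for removal were higher in Vil-KO without overlap. The same held for 1 of 2 peroxidases, 0 of 5 phagocyte oxidase genes and 0 of 3 other oxidase and synthase genes. Among all tested genes the share was 5.21%.

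**Figure D5:**
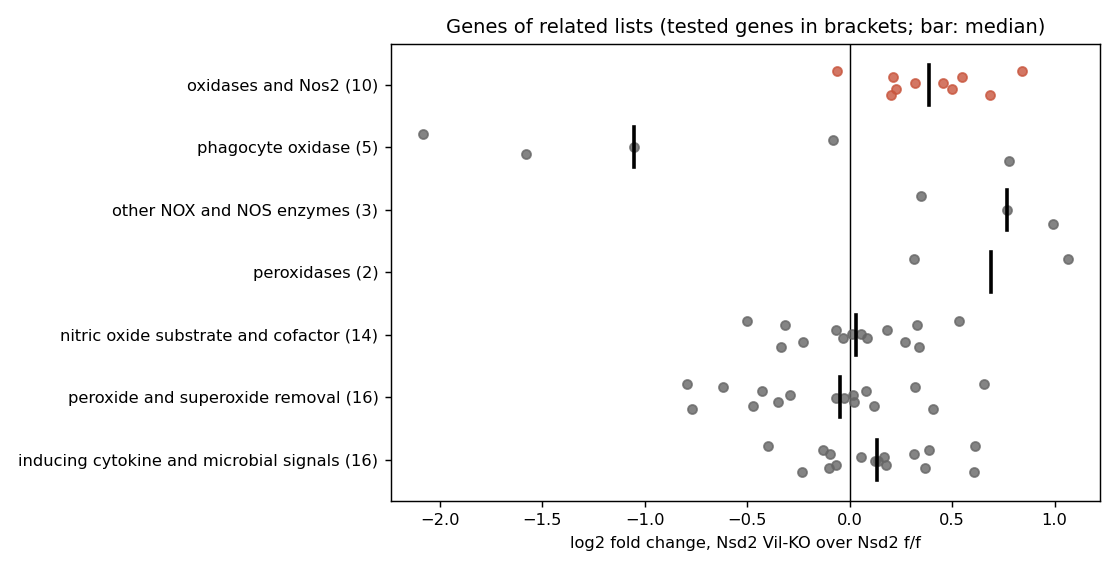
Log2 fold change, Vil-KO over f/f, of each tested gene (points) in the oxidase group (red) and in 6 related lists (grey), with the median of each as a bar. The phagocyte oxidase genes spread from -2.08 to 0.78, and the lists for nitric oxide supply, peroxide removal and inducing signals have medians of 0.03, -0.05 and 0.13.

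The remaining marker lists give the makeup of the preparations. Markers of surface colonocytes summed to 6081 CPM in Nsd2 f/f replicate 3 and to 1705 to 2335 CPM in the other 5 libraries. Stromal markers summed to 266 CPM in Nsd2 f/f replicate 1 and to 5.90 to 75.0 CPM elsewhere, T cell markers to 9.66 to 19.2 CPM, B and plasma cell markers to 6.05 to 49.0 CPM, and endothelial markers to 0.61 to 3.86 CPM, with the 1 tested of 4 past the criterion as lower in Vil-KO. Hox genes of the distal colon summed to 884 CPM in Nsd2 f/f replicate 3, of which Hoxb13 made up 78.0%, and to 387 to 553 CPM elsewhere. Nsd2 f/f replicate 3, the library with the lowest Duox2, Duoxa2, Nos2 and Duoxa1, was the highest for 5 of 6 surface colonocyte markers and for 2 of 5 distal Hox genes, with 2 more of these at their lowest there, and the part of this in the levels of the oxidase genes was not tested.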

How the data were processed

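RNA-seq of IECs in 3 Nsd2 f/f and 3 Nsd2 Vil-KO libraries was analysed, with genotype and replicate taken from the sample titles. The deposited table holds raw counts, 1 whole number for each Ensembl gene and library, neither normalised nor filtered. According to the study, reads were trimmed with Cutadapt and Trimmomatic and aligned to GRCm38 with HISAT2, and a TruSeq kit is named in the labels where the methods give a directional NEBNext kit, which keeps the strand. The methods describe FPKM values from StringTie, which were not used here. Which program made the deposited counts, and whether by strand, is not given in the sources used here. Opposite-strand neighbours and near-identical copies may therefore share reads, and such overlaps are given beside the genes they touch. All 6 columns of the table were used, and 0 were left out.

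The counts of all genes were fitted together by the robust quasi-likelihood test of edgeR 4.0.16 under R 4.3.3, with genotype as the sole term, filterByExpr and TMM factors, and p-values were adjusted by Benjamini-Hochberg over 14650 genes. The screening criterion asked for an unadjusted p below 0.05 and a change of more than 1.2-fold. Single genes and ratios were also compared by exact two-sided permutation over the 20 assignments of 3 against 3 libraries, of log2(CPM + 1) for genes and of log2 ratios of reads per kilobase. The test was tried on simulated counts. Exon lengths and positions came from GENCODE vM21 (99.53% of listed genes found) and windows of 250 bases from RefSeq. Alternatives covered normalisation, filter, model (DESeq2 1.42.0, limma 3.58.1), call rule, Xist as a covariate, mitochondrial genes, a replicate block, each library left out and both libraries that stood apart left out. Figures were drawn with matplotlib 3.10.9. The floor was fixed at 3 counts, which covers counting error only. Its level in CPM follows from the depth of 15439123 to 20350539 counts and the TMM factors.

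The 10 genes, the related lists and the marker lists were chosen with earlier results of these data known. The text names the 10 genes, every phagocyte oxidase gene of the list, the 2 tested genes of smallest p in each other related list, the 5 genes of most similar pattern for Duox2, Nox1 and Nos2, Nsd2, and at most 3 abundant genes of a marker list. Tbl3, Daglb, Cstf2, Entpd8 and Gfer were named beyond this rule because of their position, and Rac3, Adgre1, Cxcr2 and the values of Ccnd1 and Gbp4 were picked after their values were seen. A gene that this rule names is not reported here and was taken out of its list.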

Additional observations from a re-analysis of the deposited data

How the results depend on the processing

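No alternative that was run gave any of the 10 genes an adjusted p below 0.05. The number of the 10 past the screening criterion was 0 with other size factors, library size only, no robust estimation, mitochondrial genes left out, a fold change above 2 or no limit on it. It was 1 without a filter on low counts and with DESeq2 (Duoxa2 in both), 2 with quality weights in limma-voom and with Xist as a covariate (Duox2 and Duoxa2 in both), 3 in the 4 libraries without the pair that stood apart, and between 0 and 1 when a single library was left out (1 without any f/f library, Duoxa2, or without Nsd2 Vil-KO replicate 2, Duox2). A filter of at least 10 counts in each library removed Duox1 and gave 0 of 9. Over all genes, 482 (3.29%) passed, against 861 (3.27%) without the filter, 633 (4.32%) with DESeq2 and 1440 (9.83%) with quality weights. The count was 1145 (7.82%) with the Xist covariate, 1646 (11%) in the 4 libraries and 279 (1.9%) at a fold change above 2. When a single library was left out, 323 to 769 passed (2.14% to 5.08%, with 769 without Nsd2 Vil-KO replicate 2).

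Same-numbered libraries of both genotypes did not all deviate together (correlations over genes of 0.29, -0.38 and -0.17). Whether the replicate numbers pair the libraries cannot be told from this, because the libraries that stood apart carry different numbers and enter the deviations of their groups. With the replicate block, 303 genes and 1 of the 10 (Duoxa2) passed, and the block turned no direction.

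Among the log2 fold changes of the 10 genes, 143 of the other values kept their direction and their side of the criterion, 14 passed it and 12 changed sign. The sign changed for Duox1 with the Xist covariate (0.026), for Duoxa1 and Noxa1 with quality weights (-0.17 and -0.029) and for Duoxa1 and Noxa1 in the 4 libraries (-0.21 and -0.047). With single libraries left out, the values ran from 0.27 to 0.89 for Duox2, 0.079 to 0.91 for Nox1, -1.02 to 0.61 for Duox1, -0.14 to 0.50 for Duoxa1, -0.058 to 0.52 for Cyba and -0.33 to 1.28 for Nos2. In the 4 libraries the differences in log2 ratio turned to 0.16 for Duox2 to Duoxa2 and 0.22 for Nox1 to Noxo1. With single libraries left out they ran from -0.76 to 0.028 for Duox2 to Duoxa2, -0.22 to 0.98 for Duox2 to Duox1, -0.88 to 0.70 for Nox1 to Noxo1, -0.43 to 0.95 for Nox1 to Noxa1 and -0.53 to 1.07 for Nox1 to Cyba. The cause of these changes was not tested. With 3 libraries a genotype and intervals as given, a difference within them was not detectable.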
